A study of Canis lupus familiaris with 8 samples.

Results

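The chaperone genes HSPB1, HSP90B1, HSP90AA1, HSPA8 and CANX were followed over 8 Agilent arrays of a canine mammary tumour cell line and its doxorubicin-resistant subline. Every gene probe whose RefSeq accession maps to 1 of these 5 genes was taken, whatever its values. The rule found 5 of the 43603 gene probes on the array, 1 for HSPB1, 2 for HSP90B1 and 2 for CANX. No probe could be named for HSP90AA1 or HSPA8, so these genes were not analysed here. The 5 probes were well above background on all 8 arrays, none was saturated, and all 5 passed the filter on dim probes. In bulk RNA a change in the share of cells that express a gene and a change in RNA per cell cannot be told apart.

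Chaperones bind proteins that are unfolded, newly made or damaged, keep them from clumping and help them fold. HSPB1 is a small heat shock protein of the cytosol that works without ATP, holds unfolding proteins in large oligomers and is best known as a stress-induced protein of tumour cells. HSP90B1, also called GRP94, is the HSP90 of the endoplasmic reticulum, where it folds a limited set of secreted and membrane proteins, among them integrins and Toll-like receptors. CANX (calnexin) is a membrane-bound lectin of the endoplasmic reticulum that holds glycoproteins by their sugar chains until they are folded.

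CMT-Stylo is a canine mammary tumour cell line, and its arrays carry the treatment label non treated. CMT-Star was raised from it over months of rising doxorubicin, a DNA-damaging anthracycline, to resistance at 100 nM, and its samples are labelled doxorubicin treated. Whether the drug was present when RNA was taken is not stated. From each line, cells that were CD44+, CD24-/low and ALDH+ had been sorted by flow cytometry and are called cancer stem cells (CSC) in the labels. The unsorted lines are here called Stylo parent and Star parent, and the sorted cells Stylo CSC and Star CSC. Each of these 4 groups has 2 arrays, so n = 2 holds for every group value, and all were grown in the same serum-containing medium. The resistant line is a single derived subline. Nothing says that replicates came from separate cultures, so p-values cover only how far these arrays differ among themselves, and that spread may be technical.

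Each line had a slide of its own, so line and slide cannot be told apart. The Stylo parent arrays were the dimmest, with a 75th percentile of processed signal of 69.5 and 88.6 against 297 to 538 on the other 6 arrays. Levels below are log2 processed signal less that percentile of the same array, and differences are differences of these log2 levels. A probe was called where it changed 2-fold or more with a limma adjusted p under 0.05 over the 26828 probes tested. Calls were common: in Star parent against Stylo parent 56.6% of tested probes were called, 24.6% higher and 32.0% lower, so a call for 1 gene does not set it apart. The mammary luminal list had 5 tested markers. KRT19 and MUC1 were not well above background in either Stylo group and CDH1 was not in Stylo parent. CLDN3 went the other way, well above background on both arrays of each Stylo group and on 1 of 2 in each Star group. It was called lower in Star parent against Stylo parent (-4.27) and in Star CSC against Stylo CSC (-2.41). The hormone receptor gene PGR was well above background on every array. The summed level of this list was 2.86 in Stylo parent, 1.49 in Stylo CSC, 2.11 in Star parent and 1.67 in Star CSC, and is mostly PGR. KRT14, the 1 tested basal and myoepithelial marker, stood at 1.59, 0.61, -0.41 and -0.76 in the same order. It was called lower in both comparisons of Star against Stylo, between the parents and between the sorted cells. Of 5 tested fibroblast markers, all were well above background in every group, with summed levels of 6.33, 9.29, 7.30 and 6.90 in the same order. That sum is mostly COL1A2, the brightest spot of the list. In Star parent against Stylo parent COL1A2 was called higher (1.09), COL1A1 (-3.01), DCN (-5.47) and PDGFRB (-2.36) were called lower, and the list median was -2.36. Of 3 leukocyte markers, 0 were well above background on both arrays in the Stylo groups, 2 in Star parent and 3 in Star CSC, with summed levels of -2.68, -4.34, -3.16 and 0.06. The Stylo sums thus rest on dim signals and give no order against the Star sums. Of 3 tested genes related to the sort, CD44 stood at 0.99 ± 0.14 (SE) in Stylo CSC and at -0.88 ± 0.14 in Star CSC, each against its parent and neither called. ALDH3A1 was called lower in both (-1.70 and -1.51). ALDH1A1 was well above background only in Star CSC, at least 3.98-fold higher than in Star parent. The part of these cell features in the results below was not tested.

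HSPB1 was higher in the resistant line. Its processed signal was 2662 and 2631 on the Stylo parent arrays and 11517 and 11422 on the Stylo CSC arrays. It was 40757 and 54182 on the Star parent arrays and 45601 and 50292 on the Star CSC arrays. Within its own array the spot lay between the 95.8th and the 99.7th percentile of all gene probes, so it was among the brightest spots of each array.

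Scaled to the array, the HSPB1 level was 4.91 and 5.24 in Stylo parent, 5.21 and 5.26 in Stylo CSC, 6.77 and 7.35 in Star parent, and 6.40 and 6.76 in Star CSC. All 4 Star arrays were above all 4 Stylo arrays. A gap of 2 arrays against 2 is common: 39.4% of tested probes were higher without overlap in Star parent against Stylo parent, and 38.9% in Star CSC against Stylo CSC. The share of probes with all 4 Star arrays above all 4 Stylo arrays was not computed. Star parent exceeded Stylo parent by 1.99 ± 0.24 (SE), a 3.96-fold difference with a 95% interval of 1.41 to 2.56 on the log2 scale (limma adjusted p = 0.000412). Star CSC exceeded Stylo CSC by 1.34 ± 0.24, or 2.54-fold (interval 0.77 to 1.92; limma adjusted p = 0.00434). These 2 differences are larger than the spread between replicates, whose SD was 0.037 to 0.41 in the 4 groups. In the order of levels, Star parent and Star CSC stood above Stylo CSC and Stylo parent, and neither neighbour pair within a line differed beyond its spread in the limma test.

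**Figure D1:**
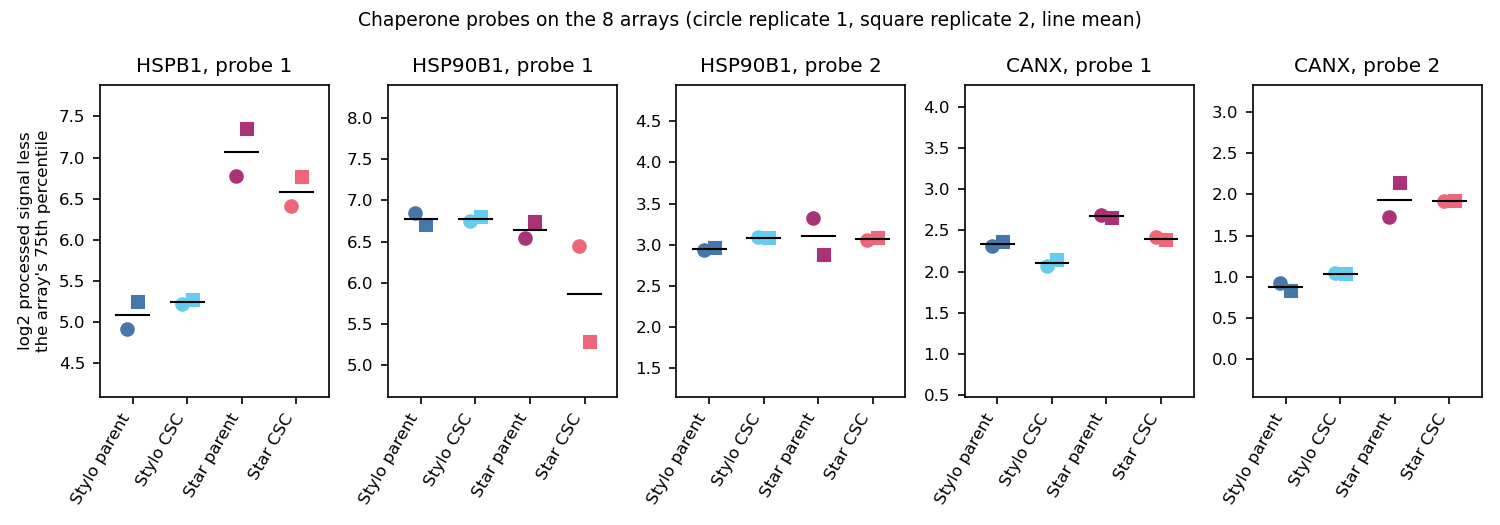
Level of each probe on the 8 arrays, as log2 processed signal less the array's 75th percentile (vertical axis), by group (horizontal axis); circles are replicate 1, squares replicate 2 and lines the mean of 2 arrays. HSPB1 separates the lines, from 4.91 to 5.26 on Stylo arrays and from 6.40 to 7.35 on Star arrays, and HSP90B1 probe 1 drops to 5.27 on Star CSC replicate 2 alone.

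The position of the HSPB1 spot bears on its size of change. The scanner software's processed signal differs from its background-subtracted signal by a factor that varied over the array. The HSPB1 spot lies in column 81 of 85, and its factor was 1.21 and 1.28 in Stylo parent, 1.29 and 1.38 in Stylo CSC, 1.37 and 1.51 in Star parent, and 1.37 and 2.19 in Star CSC, where the array medians were 0.93 to 0.97. Spots around it, within 15 rows and 4 columns, had nearly the same factor, with a median of 2.03 on Star CSC replicate 2 and 1.21 to 1.50 on the other arrays. The background-subtracted signal of HSPB1 was 2195 and 2053 in Stylo parent, 8907 and 8278 in Stylo CSC, 29799 and 35770 in Star parent, and 33330 and 22986 in Star CSC. With that signal in place of the processed one, an alternative chosen after the values were seen, Star parent still exceeded Stylo parent by 1.80 and was called. Star CSC exceeded Stylo CSC by 0.99 (limma adjusted p = 0.00692), just under the 2-fold limit, so that call was lost. The tested probes around the HSPB1 spot, 149 in number, had a median change of 0.34 in Star parent against Stylo parent, against -0.20 over all tested probes.

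**Figure D2:**
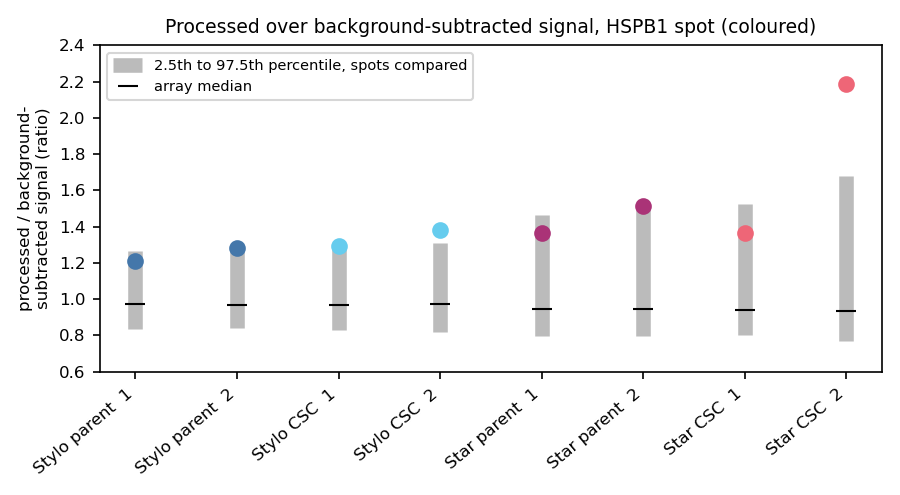
Processed over background-subtracted signal (a ratio, vertical axis) on each array (horizontal axis) for the HSPB1 spot, with the array's median and the central 95% of spots above a background-subtracted signal of 1000. The HSPB1 factor is above the array median on all 8 arrays and reaches 2.19 on Star CSC replicate 2.

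At the scaling used here, HSP90B1 showed no difference between the lines that passed the test. The processed signal of its brighter probe, probe 1, was 10200 and 7245 in Stylo parent, 33426 and 33106 in Stylo CSC, 34624 and 35365 in Star parent, and 46980 and 18001 in Star CSC. Scaled, this probe stood at 6.85 and 6.70, then 6.75 and 6.80, then 6.54 and 6.74, and last 6.45 and 5.27 in the same order. The arrays lay between 6.45 and 6.85 except Star CSC replicate 2, which was 2.26-fold below its replicate. Star parent less Stylo parent was -0.14 ± 0.36 (SE; interval -1.02 to 0.74; limma adjusted p = 0.738). Star CSC less Stylo CSC was -0.91 ± 0.36 (interval -1.79 to -0.03; limma adjusted p = 0.0729).

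Probe 2 of HSP90B1 did not share the drop. Its processed signal was 675 and 538 in Stylo parent, 2645 and 2522 in Stylo CSC, 3730 and 2439 in Star parent, and 4470 and 3937 in Star CSC. Its scaled level was 2.93 and 2.95, then 3.09 and 3.08, then 3.32 and 2.88, and last 3.05 and 3.08. The Star CSC replicates of this probe agreed within 1.02-fold. Star parent less Stylo parent was 0.16 ± 0.15 (interval -0.22 to 0.54) and Star CSC less Stylo CSC was -0.02 ± 0.15 (interval -0.40 to 0.36; limma adjusted p = 0.926). In these comparisons of the lines, the 95% intervals of probe 2 reach at most 0.54 in size.

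The low value of HSP90B1 probe 1 rests on 1 array. Without Star CSC replicate 1, the probe was called lower in Star CSC against Stylo CSC (-1.50) and against Star parent (-1.36); without Star CSC replicate 2 these differences were -0.33 and -0.19 and neither was called. Of the 168 tested probes within 15 rows and 4 columns of its spot, 1 was over 2-fold lower on Star CSC replicate 2 than on replicate 1. Among 10685 tested probes whose mean level lay above the 75th percentile, 2.85% were over 2-fold lower on Star CSC replicate 2, against 0.121% to 0.990% for the replicate 2 arrays of the other groups.

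CANX was higher in the resistant line by a small amount on 1 probe and by about 2-fold on the other. The processed signal of probe 1, the brighter, was 440 and 358 in Stylo parent, 1300 and 1310 in Stylo CSC, 2406 and 2083 in Star parent, and 2877 and 2420 in Star CSC. Its scaled level was 2.31 and 2.36, then 2.06 and 2.14, then 2.69 and 2.65, and last 2.42 and 2.38. The groups did not overlap, and the lowest level was that of Stylo CSC and the highest that of Star parent. Star parent less Stylo parent was 0.33 ± 0.09 (SE; interval 0.11 to 0.55; limma adjusted p = 0.0151) and Star CSC less Stylo CSC was 0.30 ± 0.09 (interval 0.08 to 0.52; limma adjusted p = 0.0313). Both differences, 1.26-fold and 1.23-fold, passed the p threshold and fell short of the 2-fold limit.

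Probe 2 of CANX had a processed signal of 168 and 123 in Stylo parent, 641 and 606 in Stylo CSC, 1231 and 1456 in Star parent, and 2044 and 1754 in Star CSC. Its scaled level was 0.92 and 0.82, then 1.04 and 1.03, then 1.72 and 2.13, and last 1.93 and 1.91. Each of the 4 Star arrays was above each of the 4 Stylo arrays, a gap whose share over all tested probes was not computed. Star parent exceeded Stylo parent by 1.06 ± 0.15 (interval 0.69 to 1.42), or 2.08-fold, and was called (limma adjusted p = 0.000909). The call did not hold without Star parent replicate 2, where the difference was 0.85. Star CSC less Stylo CSC was 0.89 ± 0.15 (interval 0.52 to 1.25; limma adjusted p = 0.00373), or 1.85-fold, under the 2-fold limit. Thus both CANX probes were higher in the Star groups, by sizes that differ between the probes.

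Counted by gene, with the tested probe of highest mean level standing for each, 1 of 3 chaperone genes (HSPB1) was called higher in Star parent against Stylo parent, where 24.6% of all tested probes were called higher. In Star CSC against Stylo CSC it was again 1 of 3 (HSPB1), where 29.4% were called, 12.6% higher and 16.9% lower. Counts this small over 3 genes say little against those shares. HSPB1's change was above that of 89.4% of tested probes in the first of these comparisons and of 91.6% in the other. HSP90B1 probe 1 stood above 51.3% and 20.7%, and CANX probe 1 above 61.6% and 67.0%.

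**Figure D3:**
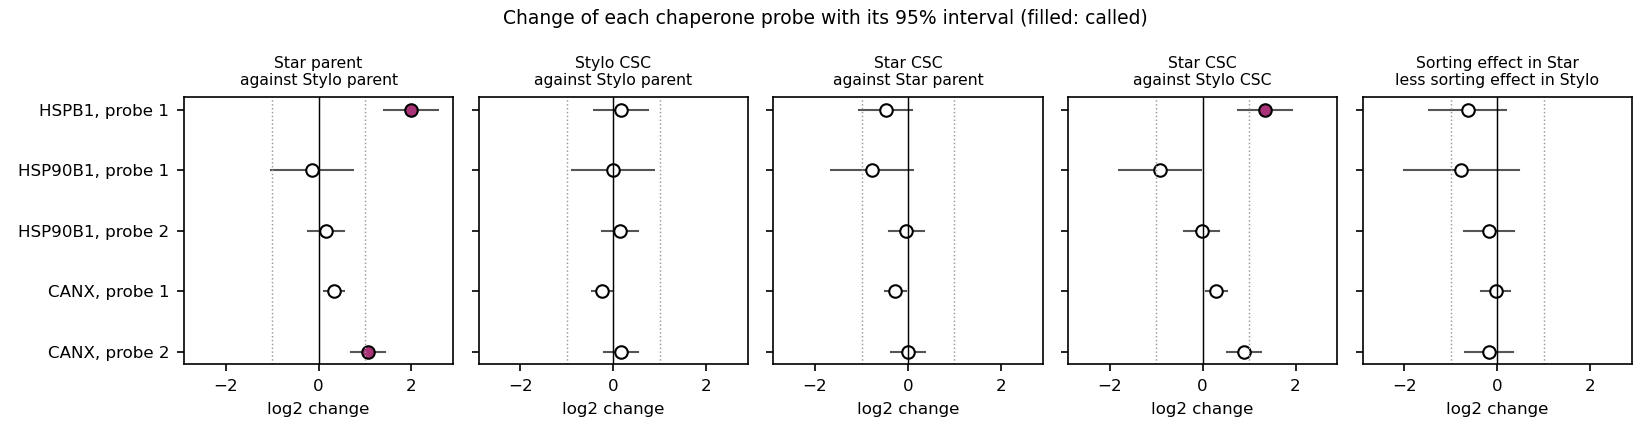
Log2 change of each of the 5 probes (horizontal axis) in the 5 comparisons (panels) with its 95% limma interval; filled points were called, and dotted lines mark 2-fold. Called points are HSPB1 in both comparisons of the lines (1.99 and 1.34) and CANX probe 2 between the parents (1.06).

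At the scaling used here, sorting CD44+, CD24-/low, ALDH+ cells changed none of the 3 genes by the call rule. In Stylo CSC against Stylo parent 0 of 5 probes were called, where 54.0% of tested probes were (21.9% higher, 32.1% lower), and the unadjusted p was under 0.05 for 1 probe, CANX probe 1. The differences were 0.16 for HSPB1 (interval -0.42 to 0.74), -0.0030 and 0.14 for the HSP90B1 probes, and -0.24 and 0.16 for the CANX probes. Only CANX probe 1 came near the threshold (interval -0.46 to -0.02; limma adjusted p = 0.0517). Raw signals of all 5 probes were higher on the Stylo CSC than on the Stylo parent arrays, as was the 75th percentile to which they were scaled.

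In Star CSC against Star parent 0 of 5 probes were called, where 9.72% of tested probes were (3.21% higher, 6.51% lower), and CANX probe 1 alone had an unadjusted p under 0.05. HSPB1 was lower in the sorted cells by 0.48 ± 0.24 (interval -1.06 to 0.10; limma adjusted p = 0.172), without overlap of the arrays, as were 41.8% of tested probes. CANX probe 1 stood at -0.27 (interval -0.49 to -0.05; limma adjusted p = 0.0685) and CANX probe 2 at -0.0083. HSP90B1 probe 1 stood at -0.78 (interval -1.66 to 0.11; limma adjusted p = 0.153), with the low Star CSC replicate 2 in it, and probe 2 at -0.03 (interval -0.41 to 0.35). Both sorting comparisons lie within a slide, so slide does not enter them. The test of whether sorting acted differently in the 2 lines called 0 of 5 probes, where 52.1% of tested probes were called (28.2% higher, 23.9% lower). The difference of the sorting effects was -0.64 for HSPB1 (interval -1.46 to 0.18; limma adjusted p = 0.138), -0.77 and -0.18 for HSP90B1, and -0.03 and -0.17 for CANX, and no unadjusted p was under 0.05.

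The scaling of the arrays matters for the size of these changes, since Stylo parent arrays were dimmer and their signal was held by fewer spots. HSPB1 was called higher in Star parent than in Stylo parent under each of 7 other scalings and background corrections, with differences of 1.80 to 3.26. For HSP90B1 probe 1 the same comparison changed sign, from -0.14 to 1.38 with quantile normalisation, 1.19 with cyclic loess and 1.42 with normexp background correction, all 3 called, so no direction is given for that probe. HSP90B1 probe 2, at 0.16 here, was called with spike-in scaling (1.11) and normexp (1.46). CANX probe 2 stayed called under the same 7, at 1.12 to 2.01. The median change of all tested probes in this comparison was -0.20 at the scaling used here, 0.14 with quantile normalisation, 0.75 with spike-in scaling and -0.82 with normexp.

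A difference between probes of the same array does not depend on a constant scaling factor. HSPB1 less HSP90B1 probe 2 was 1.98 and 2.29 in Stylo parent, 2.12 and 2.18 in Stylo CSC, 3.45 and 4.47 in Star parent, and 3.35 and 3.68 in Star CSC. HSPB1 less CANX probe 1 was 2.60 and 2.88, then 3.15 and 3.12, then 4.08 and 4.70, and last 3.99 and 4.38. On every Star array the processed HSPB1 signal stood further above these endoplasmic reticulum probes than on any Stylo array. For CANX probe 2 the order held narrowly, at 4.48 on Star CSC replicate 1 against 4.42 on Stylo parent replicate 2. The factor of the HSPB1 spot, 2.19 on Star CSC replicate 2, varies with position and does not cancel. The values show unequal change of the processed signal, and not that these probes were constant. The background-subtracted signal was not compared in this way. With 2 arrays against 2, an exact permutation test of such a value cannot go below p = 0.333, so none is given.

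**Figure D4:**
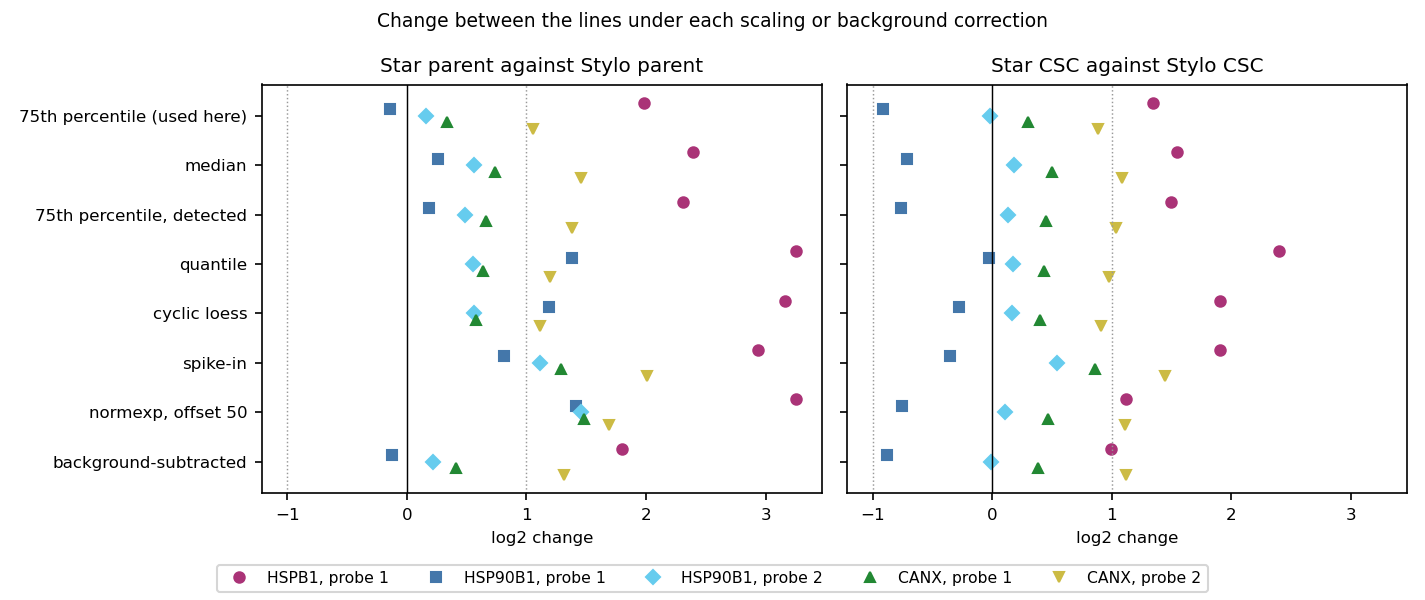
Log2 change of the 5 probes (horizontal axis) between the lines, parents on the left and sorted cells on the right, under 8 scalings or background corrections (vertical axis); dotted lines mark 2-fold. HSPB1 stays at 1.80 or above between the parents, while HSP90B1 probe 1 runs from -0.14 to 1.42.

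The other cytosolic chaperones and co-chaperones were read from a list of 70 genes, of which 9 had a named probe and 8 were tested. CRYAA, a small heat shock protein of the lens, was not tested because it was not well above background on both arrays of any group. In Star parent against Stylo parent 4 of 8 rose and 1 fell, with a median change of 0.85, beside 201 of 979 named genes higher, 383 lower and a median of -0.49. HSP70, listed under that symbol for a stress-inducible HSP70 chaperone, rose by 2.65 ± 0.10 (SE). HSPB8, a small heat shock protein that works with BAG3, rose by 1.97 ± 0.18. HSPA4, a nucleotide exchange factor for HSP70, rose by 1.65 ± 0.11, and DNAJA1, a J-domain co-chaperone of HSP70, by 1.51 ± 0.12. These 4 were called under each of the 7 other scalings and background corrections. PFDN6, a subunit of prefoldin, which carries actin and tubulin chains to their chaperonin, fell by 1.97 on the log2 scale (SE 0.09), but was called in only 4 of those 7. The other probe of HSPB8 (2.16), HSPA4 (1.29) and PFDN6 (-1.35) was also called, while that of DNAJA1 (0.96) was not. Not called were FKBP1A (0.19), ST13 (-0.58) and HSF4 (-0.41).

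HSP70 had 4 probes, and all 4 were called higher in Star parent than in Stylo parent. The change was 2.65, 2.81 and 3.10 on 3 of them. The fourth had no Stylo parent array well above background and was at least 8.47-fold higher in Star parent. Its limma adjusted p of 7.58e-05 belongs to the unbounded change of 3.40, which uses the dim values, and not to this bound. Such a bound sets the bright group's mean against the lowest well-above-background signal, or the dim probe's own where that is higher. On the probe of highest mean level the scaled level was -0.01 and 0.11 in Stylo parent, 3.28 and 3.25 in Stylo CSC, 2.65 and 2.75 in Star parent, and 2.76 and 2.74 in Star CSC. The Stylo parent arrays were thus the low ones, and the other 6 arrays lay between 2.65 and 3.28. Another HSP70 probe stood at 2.69 on Star CSC replicate 1 and at -0.51 on Star CSC replicate 2, the array on which HSP90B1 probe 1 was low. Probes of the HSP70 family can share sequence, and which members each detects was not tested.

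Sorting changed HSP70 in Stylo, and the sorting effects of the lines differed. At the scaling used here it was the 1 gene of the 8 that rose in Stylo CSC against Stylo parent, by 3.22 ± 0.10, with none lower and a list median of 0.09, beside 189 of 979 named genes higher, 373 lower and a median of -0.60. HSPA4 and DNAJA1 were each called higher there in 4 of the 7 other settings. With spike-in scaling all 8 were called higher, as they also were in Star CSC against Star parent. That scaling called 68.5% of all tested probes in the Stylo comparison and 83.3% in the Star comparison, at median changes of 1.79 and 1.58. The other probe of PFDN6 was called lower in Stylo CSC against Stylo parent (-1.09). In Star CSC against Star parent 0 of 8 passed, beside 54 of 979 named genes higher and 72 lower. The list median was 0.14, against -0.10 over named genes, and HSP70 stood at 0.05 ± 0.10. The test of the difference gave -3.16 ± 0.14 for HSP70 and -1.22 ± 0.16 for HSPA4 as called lower, and 1.14 ± 0.15 for ST13 and 1.14 ± 0.13 for PFDN6 as called higher. Of the 979 named genes 326 were called higher and 202 lower in that test. The HSPA4 call was made in 6 of the 7 other settings, and its other probe gave -0.70 and was not called. The ST13 and PFDN6 calls were each made in only 1 of the 7, with values down to 0.07 for ST13 and -0.27 for PFDN6. The HSP70 difference was called under all 7 other settings (-3.55 to -2.83). At the scaling used here HSPB1 did not show that pattern: its level in Stylo CSC differed from that in Stylo parent by 0.16. With spike-in scaling and normexp HSPB1 was called higher in Stylo CSC, and over all alternatives this change reached 2.23. Its difference of sorting effects was called lower with cyclic loess and normexp, and went down to -2.14. In Star CSC against Stylo CSC 2 of 8 rose and none fell, beside 155 of 979 named genes higher and 218 lower. The list median was 0.45, against -0.19 over named genes. HSPB8 rose by 1.34 ± 0.18 and DNAJA1 by 1.31 ± 0.12. Each of these calls rests on 1 of 2 probes, since the other stood at 0.96 for HSPB8 and 0.56 for DNAJA1 and was not called.

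Of 54 other genes of folding and quality control in the endoplasmic reticulum, 4 had a named probe and 3 were tested. Between the parents 0 of 3 were called higher and 1 lower, beside 201 of 979 named genes higher and 383 lower. Counts over 3 genes say little against those shares. SELENOF, a selenoprotein bound to the glycoprotein folding sensor, fell by 2.21 ± 0.16 in Star parent and by 2.21 ± 0.16 in Stylo CSC, each against Stylo parent, while its processed signal was 5340 and 4790 in Stylo parent and 4118 to 5066 in those other groups. These calls were made in 6 and 5 of the 7 other settings, where the change was as small as -0.67 and -0.13. SELENOS, a membrane selenoprotein of the pathway that exports misfolded proteins for degradation, stood at 3.89 and 3.78 in Stylo parent, 1.92 and 2.22 in Stylo CSC, 3.31 and 3.23 in Star parent, and 3.68 and 3.95 in Star CSC. It fell by 1.77 ± 0.15 in Stylo CSC against Stylo parent, rose by 1.75 ± 0.15 in Star CSC against Stylo CSC, and its sorting effects differed by 2.31 ± 0.21. With spike-in scaling the sign of the sorting change in Stylo flipped to 0.30. SERPINH1, the collagen chaperone HSP47, was not called in any comparison (-0.71 ± 0.09 between the parents). The list median over these 3 genes was -0.71 between the parents and -1.77 for sorting in Stylo, beside -0.49 and -0.60 over named genes. The first changed sign with spike-in scaling (0.24) and normexp (0.82), and the other with spike-in scaling (0.30). No gene of 10 mitochondrial chaperones or of 17 genes of the unfolded protein response had a named probe, so the sensors and targets of that response were not analysed here.

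**Figure D5:**
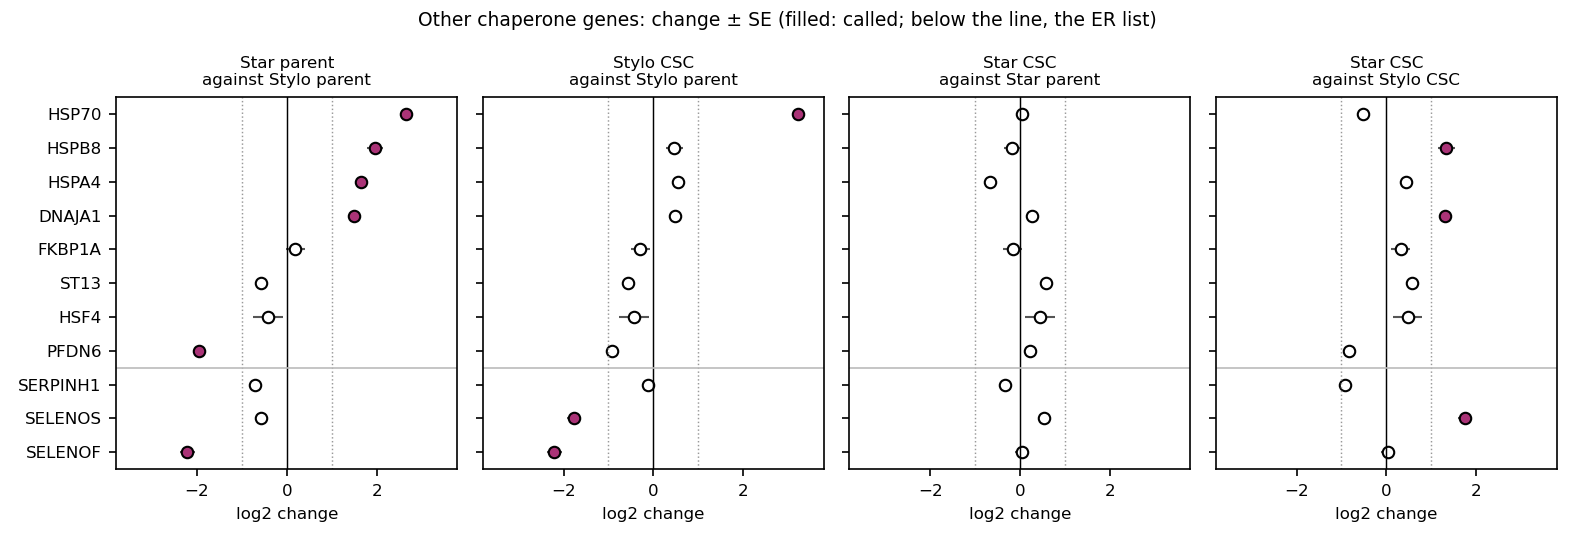
Log2 change ± SE (horizontal axis) of 11 other chaperone genes in 4 comparisons (panels), with the cytosolic list above the grey line and the endoplasmic reticulum list below it; filled points were called and dotted lines mark 2-fold. HSP70 is high in Star parent (2.65) and Stylo CSC (3.22) against Stylo parent and lies at 0.05 in Star CSC against Star parent.

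The genes most like each chaperone were taken by Pearson's r over the 8 arrays among 976 other named genes, as a description of arrays that share line and slide. HSPB1 was most like RAB7A (0.985), a GTPase of late endosomes, CCND1 (0.980), the cyclin of G1 phase, and CD40LG (0.970). CCND1 levels were 2.38 and 2.30 in Stylo parent, 2.85 and 2.94 in Stylo CSC, 5.40 and 5.61 in Star parent, and 4.71 and 5.36 in Star CSC, so that it too was high on all Star arrays. CANX probe 1 was most like ALDH3A1 (0.985), an aldehyde dehydrogenase, COL2A1 (0.979) and KDR (0.976), the last 2 not well above background in either Stylo group. HSP90B1 probe 1 was most like WDR1 (0.976), MRPS35 (0.932) and DDOST (0.930). These 3 were also low on Star CSC replicate 2: WDR1, an actin disassembly factor, stood at 4.19 on replicate 1 and 1.02 on replicate 2, and MRPS35, a mitochondrial ribosomal protein, at 3.07 and -0.80. Without that array, the likeness of HSP90B1 to them was 0.766, 0.442 and 0.595, and its nearest genes were MYC (0.931), CXCL8 (0.924) and RNF141 (0.906). Among the members, r over 8 arrays was 0.795 for HSPB1 with CANX probe 1, 0.963 with CANX probe 2, and -0.459 and 0.169 with the HSP90B1 probes, and 0.690 between the CANX probes but -0.224 between the HSP90B1 probes.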

How the data were processed

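Total RNA was labelled with Cy3 and hybridised to 8 one-colour Agilent arrays. Per the submitters' processing notes, Agilent Feature Extraction 11.5.1.1 read the spots. Each spot's intensity was deposited as a processed, a background-subtracted and a median signal, with background flags as yes or no values, per the file headers. The deposited value table holds log2 values. They match the levels computed here, centred on each probe's median, with column medians of -0.27 to 1.01.

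Control and outlier spots were left out, log2 processed signals were averaged per probe and the 75th percentile was subtracted. A probe was tested if well above background on both arrays of a group. limma 3.58.1 in R 4.3.3 fitted 4 group means on all 8 arrays, with 4 residual degrees of freedom. All p-values are two-sided and, unless called unadjusted, adjusted by Benjamini-Hochberg over all tested probes. Names came from a RefSeq table (assembly UU_Cfam_GSD_1.0, names only), which named 2353 of 43603 probes (5.40%), so no coordinates or sequences are given. Another 19070 probes carry Ensembl and 3746 model RefSeq accessions and were not named. The tested probe of highest mean level stands for its gene. Members, lists and tests were chosen with earlier results of these data known. Every member and, of each chaperone list, the called genes (at most 4 of largest change) are named, and others with their values after they were seen. The fit was tested on simulated data. With 2 arrays a group, precision is limited by their number. Alternatives covered scaling, background correction, filters, thresholds, the variance model, a replicate block and leaving out each array.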

Additional observations from a re-analysis of the deposited data

How the results depend on the processing

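Of the 515 comparisons of a probe's value with an alternative, 446 kept direction and side of the threshold and 42 changed sign. With the sign kept, 25 gained a call and 2 lost one. Some of the 42 became called as well, such as HSP90B1 probe 1 between the parents with quantile normalisation, cyclic loess and normexp. Calls were thus gained in more than 25. HSPB1 in Star parent against Stylo parent was called in all 20 alternatives run (1.70 to 3.26). The number of member genes called in that comparison went from 1 to 2 with quantile normalisation, cyclic loess, spike-in scaling or no fold limit, and to 3 with normexp. For Stylo CSC against Stylo parent it went from 0 to 3 with spike-in scaling and 2 with normexp. Those settings called 68.5% and 58.6% of all tested probes there. For Star CSC against Star parent the number of member genes called went from 0 to 2 with spike-in scaling, which called 83.3% of tested probes. It lay at 0 to 1 when arrays were left out. For Star CSC against Stylo CSC it went from 1 to 2 with no fold limit and to 0 with the background-subtracted signal, which was chosen after seeing the data, and lay at 1 to 2 when arrays were left out. For the difference of sorting effects it went from 0 to 1 with cyclic loess and 3 with normexp, and lay at 0 to 1 when arrays were left out. The counts that moved without an array were those without Star CSC replicate 1, by HSP90B1.

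Sign changes were of values that had not been called. HSP90B1 probe 1, Star parent against Stylo parent, went from -0.14 to 1.38 (quantile), 0.26 (median), 0.19 (75th percentile of detected probes), 1.19 (cyclic loess), 0.81 (spike-in) and 1.42 (normexp). The same probe, Stylo CSC against Stylo parent, went from -0.0030 to 0.86, 0.43, 0.20, 0.85, 2.07 and 1.55 in that order, to 0.0040 with the deposited table and to 0.0020 with the background-subtracted signal. HSP90B1 probe 2, Star CSC against Stylo CSC, went from -0.02 to 0.17, 0.18, 0.13, 0.16, 0.54 and 0.11 in the same order. CANX probe 1, Stylo CSC against Stylo parent, went from -0.24 to 0.20 (median), 1.83 (spike-in) and 0.85 (normexp). In Star CSC against Star parent, HSP90B1 probe 2 went to 0.20 (median), 1.65 (spike-in) and 0.0087 (normexp), and CANX probe 2 to 0.22 (median), 0.019 (detected probes), 1.67 (spike-in) and 0.065 (normexp). With spike-in scaling HSPB1 (1.20), HSP90B1 probe 1 (0.90) and CANX probe 1 (1.41) also turned there. The spike-in values rest on 8 control probes, and the cause of these changes was not tested.

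When arrays were left out, the range crossed 0 for HSPB1 (-0.0065 to 0.33) and HSP90B1 probe 1 (-0.074 to 0.068) in Stylo CSC against Stylo parent, for HSP90B1 probe 2 in Star parent against Stylo parent (-0.064 to 0.38), and for HSP90B1 probe 2 (-0.25 to 0.19) and CANX probe 2 (-0.21 to 0.20) in Star CSC against Star parent. It crossed 0 in the difference of sorting effects for CANX probe 1 (-0.072 to 0.0029), HSP90B1 probe 2 (-0.40 to 0.046) and CANX probe 2 (-0.38 to 0.034). Where an array is left out, the lone array is assumed to vary like the other groups.

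With the replicate number as a block, HSPB1 in Star parent against Stylo parent stayed at 1.99 (limma adjusted p = 0.000211) and no call of a member changed. Deviations from the group means correlated by -0.068 to 0.073 between arrays of 1 number, so no shift shared by number was seen. Whether the samples were paired is not stated, and these correlations cannot decide it. Slide as a block could not be fitted for comparisons between the lines, and for sorting it equals the fit of only the arrays compared. That fit gives no separate value for the difference of sorting effects.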

Other observations

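Of 19 genes that respond to handling and early stress, 5 were tested. NR4A1, an immediate-early nuclear receptor, had no Stylo parent array well above background and was at least 27.4-fold higher in Stylo CSC, while it stood at -4.55 in Star parent and -4.18 in Star CSC. The limma adjusted p of 1.23e-05 belongs to its unbounded change of 6.75, which uses the dim Stylo parent values. HMOX1, the stress-induced heme oxygenase, was 2.89 ± 0.20 (SE) higher in Star parent than in Stylo parent, where 1 of 2 arrays was well above background. The call between the parents was made in 6 of the 7 other scalings and background corrections (0.36 to 3.84). HMOX1 was 1.18 lower in Star CSC than in Star parent, a call made in 4 of those 7, with values up to 0.50. In Stylo CSC it was 1.02 higher than in Stylo parent, and was called higher in 6 of the 7 and lower in 1. Its 4 Star arrays were above its 4 Stylo arrays, as those of HSPB1 were, a gap whose share over all tested probes was not computed. SOCS3, an inhibitor of cytokine signalling, was lower than in Stylo parent in both Star parent (-2.95 ± 0.26) and Stylo CSC (-3.02 ± 0.26). FOSB was lower in Star parent than in Stylo parent (-1.69 ± 0.18), and this call was made in 6 of the 7 other settings, where the change was as small as -0.74. Its processed signal was 34.8 and 34.4 in Stylo parent and 47.2 and 48.8 in Star parent. MYC was not called in any comparison at the scaling used here. In Star parent against Stylo parent 1 of the 5 was higher and 2 lower, beside 201 and 383 of 979 named genes.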
